A study of Drosophila melanogaster with 2 samples.

Results

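The pair-rule genes are 9 segmentation genes of the Drosophila embryo, namely hairy (hry), runt (run), even-skipped (eve), odd-skipped (odd), fushi tarazu (ftz), paired (prd), sloppy paired 1 and 2 (slp1 and slp2) and odd-paired (opa). They were set against 13968 protein-coding genes on the main chromosome arms, the 9 included. Chromatin immunoprecipitation and sequencing (ChIP-seq) gave the binding of hng2 (CG8359), a protein of the MADF-BESS family, in whole embryos of mixed sex aged 0 to 14 h. Both biological replicates, numbered 2 and 3, came from a transgenic line with GFP at the C-terminus of CG8359, and they form 1 group. The sample description names an antibody to GFP and the antibody entry names CG8359; which was used cannot be read from peak lists. Sonicated fragments spanned 200 to 800 bp. No untagged line or other group was among the samples, and the peak lists hold no expression values with which to check the tissue.

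Each gene was given a window that ran over its body and 10 kb to each side, and every peak summit in that window was taken on build dm6. The genes were chosen by the summits and signals of these same lists, so their counts, ranks and signals are a description with no test. The optimal list, made by the authors from both replicates, held 3170 peaks. The relaxed lists of both replicates pooled, of replicate 2 and of replicate 3 held 30000 peaks each. Per the authors' own naming the relaxed lists hold peaks and background, so a summit found in them alone is not a called binding site. Signal is the peak caller's value for a peak against its control library. It is not scaled between lists, so ranks by signal within a list are given beside it, with rank 1 the strongest.

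Pair-rule genes are the step of the segmentation hierarchy that turns broad gap-gene domains into stripes with a period of alternate segments. Most of them encode transcription factors expressed in stripes in the blastoderm embryo, and separate enhancers before and after the gene drive single stripes or pairs of stripes. Their products then position the stripes of segment polarity genes such as engrailed and wingless. Many are used again later, in the nervous system among other tissues. Chromatin of embryos of all ages in the collection entered each library, so binding in few cells and weak binding per cell cannot be told apart.

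The strongest of all summits at pair-rule genes lay before hry, and the strongest at the other genes lay between slp1 and slp2. The sequences under these and under 2 further summits are given here because the ranks below turn on them. Each is 200 bases of the forward strand of the RefSeq Release 6 genome (dm6), and none overlaps an annotated transcript. The site before hry is chr3L:8672749-8672948, with the summit at base 101. The hry promoter stretch is chr3L:8675559-8675758 and ends just before the first transcription start site (TSS), with the summit at base 166. The site between slp1 and slp2 is chr2L:3832411-3832610, and the site beyond slp1 is chr2L:3827809-3828008, both with the summit at base 101. The site beyond slp1 also lies between slp1 and slp2, closer to slp1. Capitals mark the letters of the searched motifs GAGAG (or CTCTC on the other strand) and CAGGTA, and any word of 10 bases that occurs again in its window, on either strand, in copies that do not overlap. Runs of short repeats, such as those of the hry promoter, are therefore in lower case.
hry upstream: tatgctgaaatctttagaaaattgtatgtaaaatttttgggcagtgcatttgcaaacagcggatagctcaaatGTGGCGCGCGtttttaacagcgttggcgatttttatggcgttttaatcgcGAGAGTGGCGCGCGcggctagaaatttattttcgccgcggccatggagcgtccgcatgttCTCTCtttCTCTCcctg
hry promoter: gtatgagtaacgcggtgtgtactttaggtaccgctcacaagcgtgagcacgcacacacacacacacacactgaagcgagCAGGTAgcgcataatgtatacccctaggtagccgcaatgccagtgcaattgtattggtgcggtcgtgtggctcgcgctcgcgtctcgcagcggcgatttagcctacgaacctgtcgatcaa
slp1-slp2 intergenic: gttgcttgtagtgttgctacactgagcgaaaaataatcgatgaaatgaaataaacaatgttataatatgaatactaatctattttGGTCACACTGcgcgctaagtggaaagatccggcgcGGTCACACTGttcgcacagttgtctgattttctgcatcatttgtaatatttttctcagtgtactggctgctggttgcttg
slp1 downstream: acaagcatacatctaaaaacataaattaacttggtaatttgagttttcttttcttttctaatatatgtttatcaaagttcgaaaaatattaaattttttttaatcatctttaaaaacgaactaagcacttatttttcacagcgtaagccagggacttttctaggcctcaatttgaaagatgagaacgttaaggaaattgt

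In the site before hry the word GTGGCGCGCG occurs in 2 copies, at bases 74 and 128. Of the 3170 windows of 200 bp centred on optimal summits, 1 holds that word on either strand, which is this one (0.0315%). As the word was taken from this window, no lower count was possible. The GAGAG copies of the site lie at bases 124, 184 and 192. The first of them shares its last base with the second copy of the word. In the site between slp1 and slp2 the word GGTCACACTG stands at bases 86 and 121, on either side of the summit. It was found in 11 of the 3170 windows (0.347%), and in 1 of them, this one, in 2 copies. These letters are part of the known core-promoter element called Motif 1. A longer repeat, CTGTATTATTA of 11 bases, stood at bases 63 and 74 of a window not printed above. That window belongs to the much weaker hry summit 7471 bp before the first TSS. A repeat of 10 bases or more within a window, counted in the same way, was itself common, at 19.6% of optimal windows. All these words were looked for after the windows had been seen.

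In 5 of the 9 pair-rule genes (55.6%) the window held an optimal summit, against 45.7% of all protein-coding genes. The genes with one were hry with 4, slp2 with 3, slp1 with 2, and odd and opa with 1 each; run, eve, ftz and prd had 0. Since slp1 and slp2 are neighbours and share 2 summits, the genes hold 9 distinct optimal summits. Among the 3170 strongest peaks of replicate 2, a summit lay in the windows of 5 of 9 genes, against 46.2% of all genes. Among the 3170 strongest of replicate 3 it was 3 of 9 genes (hry, slp1 and slp2), against 43.8% of all genes. Their 9 optimal summits had a median signal of 209, against 213 for the whole optimal list. The 79 distinct relaxed pooled summits in their windows had a median signal of 69.6, against 65.7 for all relaxed pooled peaks.

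**Figure D1:**
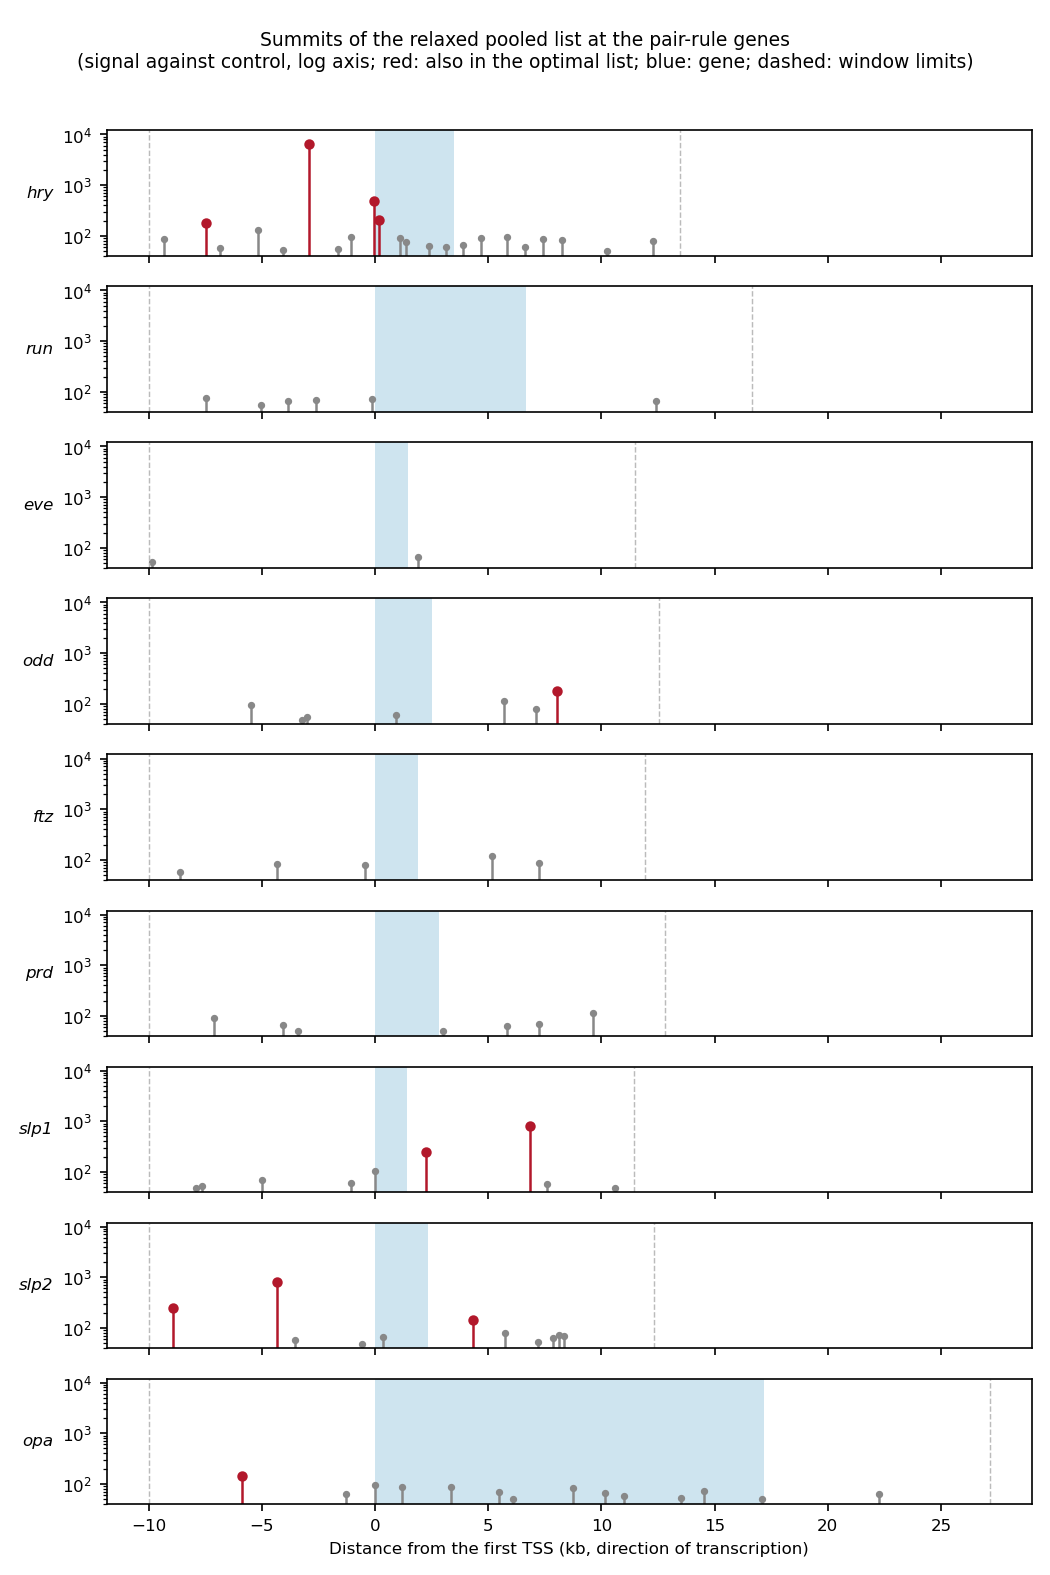
Summits of the relaxed pooled list at the 9 pair-rule genes by distance from the first TSS (kb, in the direction of transcription) and signal against control (log axis); red summits are also in the optimal list, the blue band is the gene and dashed lines are the window limits. The summit before hry, at a signal of 6443, stands far above all others, and run, eve, ftz and prd show grey summits only.

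The gene hry (FBgn0001168, 3L:8675759-8679253, forward strand) encodes a repressor of the basic helix-loop-helix Orange type that recruits the corepressor Groucho. Its strongest optimal peak covered 8672244 to 8673215, with the summit 2910 bp before the first TSS, in sequence between genes. Its pooled signal was 6443, which ranked 13 of 3170. In replicate 2 the signal was 3243, at rank 15 and 18 bp away, and in replicate 3 it was 3259, at rank 13 and the same base. The rank was thus nearly the same in both replicates. Of all 13968 genes, 51 with hry included (0.365%) had a summit at least as strong in their window. The peak was 972 bp wide, and 1.77% of optimal peaks were as wide or wider. Its signal was 30.3 times the median of the optimal list and 13.1 times that of the next optimal summit at hry.

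That next summit lay 35 bp before the first TSS of hry, with a signal of 491 at rank 388. It ranked 1313 in replicate 2 (signal 167) and 142 in replicate 3 (signal 332). A further summit lay 211 bp from it and 20 bp before the other annotated TSS of hry, with a signal of 209 at rank 1633. It ranked 5177 in replicate 2 (signal 67.4), outside the 3170 strongest there, and 435 in replicate 3 (signal 146). Both promoter summits thus ranked far higher in replicate 3 than in replicate 2, while the upstream summit held nearly the same rank in both. The fourth optimal summit lay 7471 bp before the first TSS, at a signal of 181 and rank 2027. Its ranks were close in the replicates, 2074 (signal 122) in replicate 2 and 1900 (signal 72.8) in replicate 3.

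Relaxed summits were also dense at hry. The window held 22 in the pooled list, 22 in replicate 2 and 22 in replicate 3. At 9.36 pooled summits per 10 kb it was among the densest windows: 0.451% of all genes reached that density, and the median gene window had 2.40 per 10 kb. Of the 22 pooled summits, 16 were intergenic, 2 lay in promoters, 2 in an intron, 1 in a coding exon and 1 in the 3' UTR. No other protein-coding gene lay in the window. Genes with 4 or more optimal summits in the window made up 3.30% of all genes. The next optimal summit outside it lay 17284 bp beyond the gene, at a signal of 232 and rank 1408.

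At run, eve and ftz no optimal summit was found in the window. The gene run (FBgn0003300, X:20690670-20697321, forward strand) encodes the founding protein of the Runt-domain family. Its strongest of 6 pooled summits had a signal of 74.9 at rank 10977, at position −7483 from the first TSS; it ranked 14165 in replicate 2 and 7784 in replicate 3. Of all genes, 77.7% had a stronger or equal summit in the window. A summit 146 bp before a TSS of run was found at the same base in the pooled list (rank 11626), in replicate 2 (rank 23235) and in replicate 3 (rank 9885). It lay nearer, at 109 bp, to the TSS of a non-coding RNA gene, lncRNA:CR45610. The nearest optimal summit lay 35454 bp from the gene.

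The gene eve (FBgn0000606, 2R:9979319-9980795, forward strand) encodes a homeodomain repressor and is the textbook case of separate stripe enhancers. It had the fewest summits of the 9 genes, 2 pooled, 2 in replicate 2 and 2 in replicate 3, and 85.4% of all genes had at least its density of 0.931 per 10 kb. Its strongest pooled summit had a signal of 66.4 at rank 14589, 1885 bp after the TSS. That summit ranked 14307 in replicate 2 and had no summit within 100 bp in replicate 3. The other pooled summit, at −9837 from the eve TSS, lay 418 bp from a TSS of eIF3j. In replicate 3, the summit 10133 bp after the eve TSS lay 136 bp from a TSS of TER94. The nearest optimal summit lay 19402 bp from eve, with a signal of 1041 at rank 140, and was 161 bp from a TSS of Pal1, another gene. A window of 20 kb to each side would therefore have counted eve as a gene with an optimal summit.

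The gene ftz (FBgn0001077, 3R:6864324-6866244, forward strand) encodes a homeodomain activator that works with the nuclear receptor Ftz-F1. Its strongest of 5 pooled summits lay 5177 bp after the TSS, with a signal of 117 at rank 4257, and ranked 4535 in replicate 2 and 9363 in replicate 3. That value was close to the median over all genes of the strongest summit in the window, 125. Its promoter summit, at −464 from the TSS, ranked 10090 in the pooled list, 8835 in replicate 2 and 26450 in replicate 3. Replicate 3 placed both ftz summits lower than replicate 2 did.

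The gene odd (FBgn0002985, 2L:3604224-3606756, reverse strand) encodes a zinc-finger repressor. Its 1 optimal summit, at 2L:3598696, lay 8060 bp after the TSS and beyond the gene's end, with a signal of 181 at rank 2035. It ranked 1692 in replicate 2 (signal 140) and 10470 in replicate 3 (signal 35.7). The call at odd thus rested on replicate 2 among the strongest peaks, although replicate 3 held a relaxed summit 1 bp away. A further optimal summit, with a signal of 149 at rank 2763, lay 10027 bp from the gene and so just outside the window.

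The secondary pair-rule genes prd, slp1, slp2 and opa act on the stripes laid down by the primary ones. The gene prd (FBgn0003145, 2L:12082995-12085827, reverse strand) encodes a protein with a paired domain and a homeodomain. Its window held 7 pooled summits and 0 optimal ones. The strongest, with a signal of 115 at rank 4394, ranked 4775 in replicate 2 and 4530 in replicate 3. It lay 9625 bp after the TSS of prd, in a promoter, and its nearest coding TSS was that of CG14947. The ranks of this summit were close in the replicates, while the pooled summits at −3418 and −4086 from the TSS had none within 100 bp in replicate 3.

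The genes slp1 (FBgn0003430, 2L:3825675-3827099) and slp2 (FBgn0004567, 2L:3836840-3839185) are forward-strand neighbours, 9740 bp apart, that encode closely related forkhead-domain repressors. Their strongest optimal summit, at 2L:3832511, lay between them, 6836 bp after the TSS of slp1 and 4329 bp before that of slp2. Its pooled signal was 798 at rank 188, with rank 179 in replicate 2 (signal 572) and rank 226 in replicate 3 (signal 226). Its ranks in the replicates were close. In the pooled list and in replicate 2 it came next after the upstream hry summit, and in replicate 3 the hry promoter summit (rank 142) stood between them. The signal at hry was 8.07 times as large. Its peak was narrow, 213 bp against 972 bp at hry, with 180 of the 3170 optimal peaks narrower. Widths were largely uniform, however. Every other optimal peak in the pair-rule windows was exactly 400 bp wide, and 285 of the 3170 were narrower than that.

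Nearer to slp1, 2234 bp after its TSS, the summit at 2L:3827909 had a signal of 243 at rank 1308. It ranked 1339 in replicate 2 (signal 164) and 1696 in replicate 3 (signal 76.7), so it too was among the strongest peaks of both. Beyond slp2, 4330 bp after its TSS, the summit at 2L:3841170 had a signal of 142 at rank 3008. That one ranked 2585 in replicate 2 and 8708 in replicate 3. The 3 summits were 4602 and 8659 bp apart. None lay in a slp promoter, where the pooled list had weaker summits, 7 bp before the slp1 TSS (signal 103, rank 5473) and 367 bp after the slp2 TSS (signal 65.6, rank 15068). By density, slp2 had 4.92 and slp1 4.20 pooled summits per 10 kb, which 9.46% and 16.1% of all genes reached.

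The gene opa (FBgn0003002, 3R:4852813-4869979, forward strand) encodes a zinc-finger protein of the Zic family that is expressed in a broad band rather than in stripes. Its body of 17167 bp makes its window the widest of the 9. The 1 optimal summit lay 5893 bp before the TSS, with a signal of 145 at rank 2903; it ranked 2695 in replicate 2 (signal 99.8) and 6465 in replicate 3 (signal 43.4). As at odd, it was among the 3170 strongest peaks of replicate 2 only. Of the 14 pooled summits at opa, 8 lay in introns. A promoter summit 20 bp before the TSS had a signal of 95.7 at rank 6374.

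Between replicates, 5 of the 9 optimal summits (55.6%) had a summit within 100 bp among the 3170 strongest peaks of both, against 50.4% of all optimal summits. In replicate 2 it was 8 of 9, against 84.4%, and in replicate 3 it was 6 of 9, against 62.8%. The summits missing from the strongest of replicate 3 were those at odd, opa and beyond slp2, and the one missing from replicate 2 was the weaker hry promoter summit. In the full relaxed lists all 9 were found in both replicates, against 89.2% of all optimal summits.

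**Figure D2:**
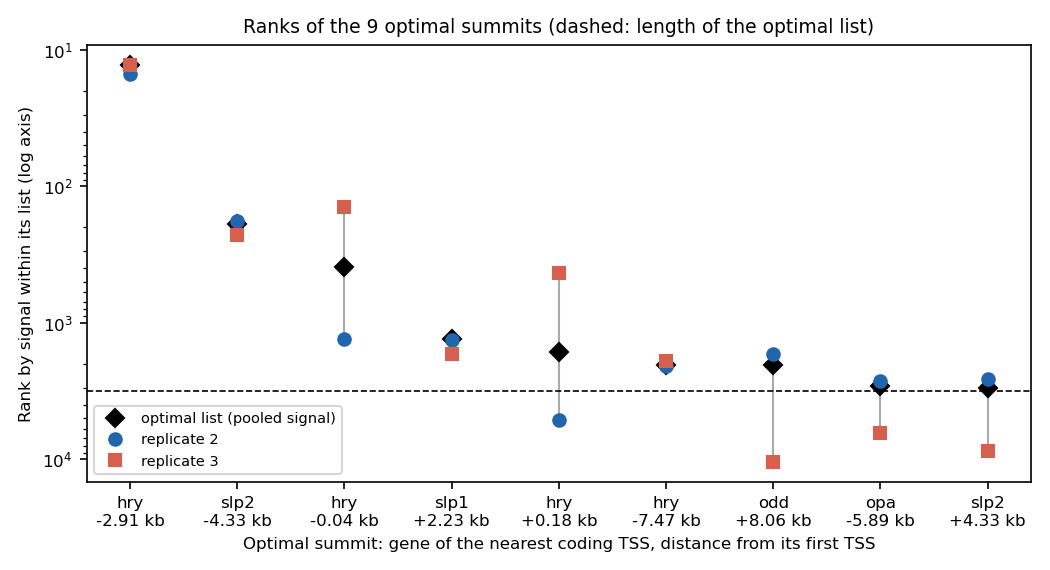
Rank by signal (log axis, strongest at the top) of each of the 9 optimal summits in the optimal list, in replicate 2 and in replicate 3, with the gene of the nearest coding TSS and the distance from its first TSS (kb); the dashed line is rank 3170. The upstream hry summit (13, 15 and 13) and the slp1-slp2 summit (188, 179 and 226) lie close together; the 3 summits on the right are below the line in replicate 3, and the weaker hry promoter summit is below it in replicate 2.

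At their own promoters, within 500 bp of an annotated TSS, 1 of the 9 pair-rule genes (hry) had an optimal summit, against 10.3% of all genes. With the relaxed pooled list it was 6 of 9 (hry, run, ftz, slp1, slp2 and opa), against 44.8% of all genes. At eve and prd a promoter summit was found in replicate 3 alone, at ranks 27162 and 26123, near the end of its list. Apart from hry, the strongest promoter summit was that of slp1, at rank 5473. By place, 7 of the 9 optimal summits of pair-rule genes were intergenic, against 14.7% of all 3170 optimal summits. The other 2 were in the hry promoter, against 41.5% of all optimal summits in a promoter of any gene, and 0 of 9 lay in an intron, against 40.1%. Flanks make up most of each pair-rule window, whereas the whole list was not limited to gene windows.

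The lowest signal in the optimal list was 137, and the weakest pair-rule summits inside it had signals of 142 (beyond slp2) and 145 (opa). Just outside it came summits at hry with 129 (5185 bp before the TSS), ftz with 117, prd with 115 and odd with 114. The strongest summits of run and eve, at 74.9 and 66.4, lay further below the limit.

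Known motifs were searched on both strands in windows of 200 bp centred on the 9 optimal summits. The GAGA factor letters GAGAG occurred in 2 of 9 windows, both at hry, against 24.3% of all optimal windows. At the hry promoter the searched window, centred on the summit, ran past the end of the stretch printed above. Its GAGAG copy does not lie within that stretch. The Zelda letters CAGGTA occurred in 1 of 9, in the hry promoter, against 4.26%. The other motifs occurred in 0 of 9 windows. The DRE letters TATCGATA were in 1.45% of all optimal windows, the CTCF letters AGNNGGCGC in 2.30%, and the bicoid-type letters GGATTA in 5.65%. The E-box with the letters CACGTG was in 2.08% and the one with CAGCTG in 7.95%. The class C E-box, CACGCG, the known site of Hairy-type proteins, was in 5.65%. GC content was 58% and 45.5% in the hry promoter windows and 46.5% at the upstream hry summit, and 26.5% at the distal hry summit. At the others it was between 27% (beyond slp1) and 40.5% (odd). The median over all optimal windows was 36%.

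Optimal summits were also counted in the windows of other genes, in lists made by hand around the segmentation network. They were found at 6 of 13 maternal and gap genes and 7 of 13 segment polarity genes, against 45.7% of all genes. In a list of partners or relatives of pair-rule genes (drm, sob, ftz-f1, gro, Ten-m, dpn and bowl) it was 7 of 7. That each of these partner genes acts with pair-rule genes was not tested. The median strongest pooled signal per gene was 145 for pair-rule genes, 107 for maternal and gap genes, 139 for segment polarity genes and 293 for the partner genes. Set against all genes, the share with a strongest summit at least as high was 0.365% for hry, 4.23% for slp1 and slp2, 35.3% for odd and 43.4% for opa. It was 53.5% for ftz, 54.0% for prd, 77.7% for run and 84.4% for eve. Among maternal and gap genes the strongest were nanos (804, rank 182), a translational repressor of the posterior pole, btd (504), bcd (356) and oc (302). Among segment polarity genes they were nkd (2147, rank 63), a Wnt antagonist, inv (936), ptc (363) and smo (281). From the first TSS these summits lay at 51679 bp for nkd, 12726 for inv, 19616 for ptc and −9922 for smo. Only that of inv lay inside its gene, and those of nkd and smo were near the window limit. Among the partners they were gro (529), which encodes the corepressor Groucho, bowl (476) and sob (357), relatives of odd, and Ten-m (293). These summits lay at −5074 bp from the first TSS for gro, 14728 for bowl, −7828 for sob and 119352 for Ten-m, all outside the gene. None of these genes reached the signal at hry. The lists differ in gene length, and longer genes have wider windows.

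**Figure D3:**
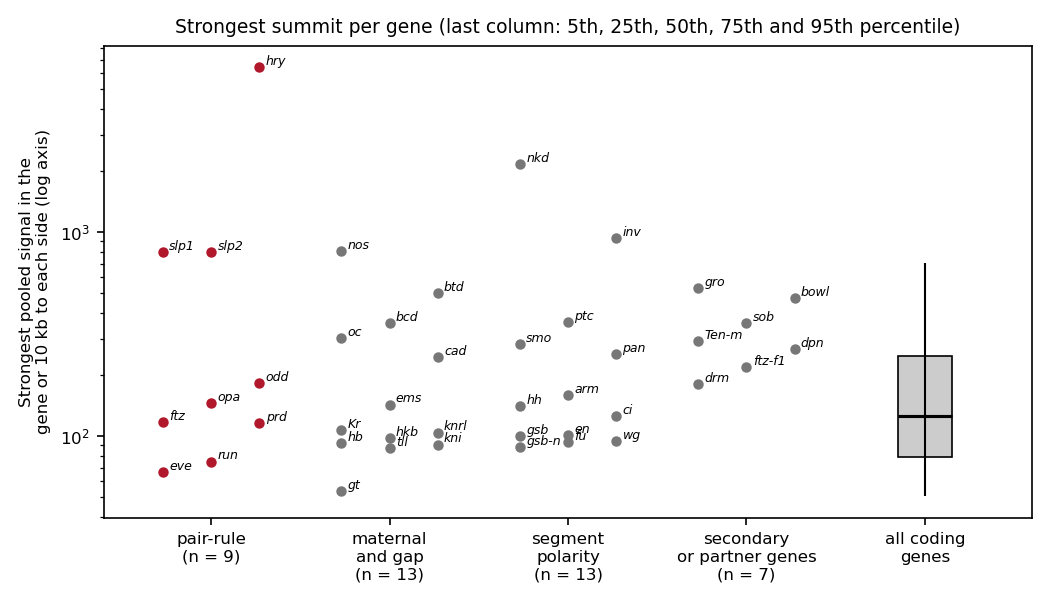
Strongest relaxed pooled signal (log axis) in the gene or 10 kb to each side, 1 point per gene, for pair-rule genes (red), other segmentation lists (grey) and all coding genes (box from the 25th to the 75th percentile, line at the median of 125, whiskers at the 5th and 95th percentile). hry at 6443 stands above all listed genes, and eve, run, prd and ftz lie below the median of all genes.

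The distribution of signal around hry was also compared with that around 13255 other genes, in 20 bins of 1 kb from 10 kb before to 10 kb after the first TSS. The genes of highest correlation with hry across bins were Shmt (Pearson r = 0.60), CG4658 (0.59), kug (0.59), Nup98-96 (0.58) and eIF4A (0.58). These genes were picked by that correlation, so a strongest bin near that of hry follows largely from the choice. As at hry, the strongest bin began at −3 kb for Shmt, CG4658 and kug. For Nup98-96 and eIF4A it began at −2 kb. Among pair-rule genes the correlation was 0.26 for run, 0.23 for opa, 0.18 for slp1 and 0.06 for eve. It was −0.04 for odd, −0.06 for ftz, −0.21 for slp2 and −0.34 for prd. Ranked among the 13255 genes, with rank 1 the most like hry, run was at 1656, opa at 2118 and slp1 at 3266. The ranks were 5983 for eve, 8407 for odd, 8815 for ftz, 11092 for slp2 and 12399 for prd. The pair-rule genes were thus not among the 5 most like hry, and as a group they shared no single likeness to it. The bins of all genes come from 1 pooled list and bins without a summit were set to 0, so these values are descriptions over 20 bins with no p.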

How the data were processed

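ChIP-seq of GFP-tagged hng2 in 2 biological replicates gave 4 peak lists on dm6: replicate 2, replicate 3, both pooled, and an optimal list. Per the notes deposited with the lists, the authors called peaks with a relaxed threshold, each time against a control alignment, and made the optimal list by irreproducible discovery rate (IDR). The deposited signal is the caller's value per peak against that control; the deposited summit offset from the peak start gave each summit position. The aligner, the peak caller, tool versions and the IDR cutoff were not given in the sources used here. Depth is unknown, as no list has read counts, and no interval could be set. Lists on dm3 were not used.

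Genes and TSSs came from Ensembl release 115 and sequence from RefSeq Release 6, and every peak end lay within its arm's length in that release. Summits were assigned to genes with 10 kb to each side, to promoters within 500 bp of a TSS, and matched between lists within 100 bp. The number of strongest peaks taken per replicate, 3170, was the length of the optimal list. Motifs were searched in windows of 200 bp. For likeness to hry, the log2 of 1 plus the highest signal was taken in bins of 1000 bp. Python 3.11.15, numpy 2.4.6, pandas 2.3.3 and matplotlib 3.10.9 were used, and assignment and motif search were tested on simulated data.

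The members and lists were chosen with earlier results of these data known. Named genes were all 9 members, the genes nearest to their optimal summits, the 5 genes most like hry, and up to 4 other segmentation genes per list by signal. The gene Pal1 and the genes in the windows were named after their values were seen. Alternatives were other windows, distances, lists and single replicates. No test was run, since the genes were chosen by the same values.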

Additional observations from a re-analysis of the deposited data

How the results depend on the processing

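Of the alternative values for the main counts and ranks, 19 stayed within 1.5 times the main count or near the main rank, and 13 did not. The 9 optimal summits became 17 with 20 kb to each side, 79 with all relaxed pooled peaks and 4 with the optimal peaks above the median signal; without 1 replicate at a time there were 8, but of the 9 only 6 were among the 8 left without replicate 2, the other 2 being further hry summits at ranks 2477 and 3049. The 5 genes with an optimal summit became 3 with 5 kb, 8 with 20 kb (all but run), 9 with relaxed peaks and 3 above the median signal. Leaving out each replicate in turn gave 3 to 5, the 3 (without replicate 2) lacking odd and opa. Against these, all genes with one were 31.5% with 5 kb and 63.5% with 20 kb. Their number, 6379 of 13968, became 4124 of 13968 above the median signal. The 3 of 9 above the median signal is near that share. With relaxed pooled peaks nearly all genes held a summit, so the 9 there is near the background. The 5th percentile over all genes of the strongest signal was 50.7, above the lowest signal of that list, 48.4. Genes with a promoter summit, 1, became 6 with relaxed peaks, and shared summits, 5, became 9 in the full relaxed lists. Windows with a searched motif, 2 at 200 bp, were 1 at 100 bp and 5 at 400 bp. The share of all optimal windows with any searched motif was not computed, so these counts have no background to be read against. At 200 bp the letters GAGAG alone were in 24.3% of all optimal windows. The upstream hry summit ranked 13 to 15 with 1 replicate left out. No paired analysis was possible because there is 1 group. Unknown depth and 2 replicates limit the ranks below the strongest peaks.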
